A study of Arabidopsis thaliana with 2 samples.

Results

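The precursors mir168a and mir168b are the 2 Arabidopsis thaliana genes for miR168, the microRNA that guides cutting of the ARGONAUTE1 mRNA. All tags that the authors listed under these 2 names were taken, 2 of 151 precursors in all, with 37 of the 1755 distinct tags in fiery and 29 of the 677 in wild type. The libraries were made by SPARE, in which an RNA adaptor is joined to free 5′ ends and the RNA next to it is copied with a primer placed downstream in each precursor, so that the first base of a tag marks where the RNA had been cut. The genotypes were a mutant named fiery and the wild type of ecotype Col-0, with 1 library each. The labels give neither the locus and allele behind the name fiery nor the ecotype of those plants. Both libraries came from mixed tissue, inflorescences and leaves of plants of 5 weeks and seedlings of 2 weeks, grown at 23 °C with 16 h of light, and the proportions of the mixture are not stated. The fiery library held 33192 reads and the wild-type library 12129.

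In plants, DICER-LIKE1 cuts microRNA precursors inside the nucleus, in a hairpin whose stem holds the microRNA on 1 arm and its partner strand on the other. A cut at the base of the hairpin leaves a downstream fragment that starts directly after the duplex on the 3′ arm, and a cut beside the loop leaves one that starts at the first base of the 3′ arm strand. miR168 lies on the 5′ arm (5p) and its partner on the 3′ arm (3p). miR168 is loaded into ARGONAUTE1, the slicing protein of the microRNA pathway, and directs it to the mRNA of ARGONAUTE1 itself, so the protein limits its own production. In reporter studies of Arabidopsis MIR168a was active in most tissues and MIR168b in fewer places.

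The annotated precursors are shown from the RefSeq annotation of TAIR10.1, because the positions below are counted on them. The 5p and the 3p strands are in capitals, in this order.
mir168a: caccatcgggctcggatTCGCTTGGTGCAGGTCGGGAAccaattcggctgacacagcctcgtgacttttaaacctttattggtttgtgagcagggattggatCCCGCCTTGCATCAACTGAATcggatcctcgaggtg
mir168b: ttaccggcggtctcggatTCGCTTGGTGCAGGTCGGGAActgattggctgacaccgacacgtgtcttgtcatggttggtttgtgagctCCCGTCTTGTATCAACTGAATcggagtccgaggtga
mir168a (AT4G19395) spans 138 nt at chr4:10578635-10578772 on the plus strand, and mir168b (AT5G45307) spans 124 nt at chr5:18358788-18358911 on the minus strand. Neither overlaps another annotated gene. The nearest neighbours of mir168a are the protein-coding gene AT4G19390, 1230 nt away, and the long non-coding RNA AT4G06880, 406 nt downstream on the opposite strand. Those of mir168b are the protein-coding genes AT5G45300, 1899 nt away, and AT5G45310, 363 nt away.

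The 2 copies carry the same 5p strand. It is shown with its seed, bases 2 to 8, in capitals.
miR168-5p: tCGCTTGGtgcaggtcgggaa
The 3p strands differ at 2 of their 21 bases, C5T and C10T (mir168a base, position from the 5′ end, mir168b base), which are in capitals here.
mir168a-3p: cccgCcttgCatcaactgaat
mir168b-3p: cccgTcttgTatcaactgaat
The stretch between the duplex arms was less alike. It had 64 nt in mir168a and 49 nt in mir168b, with 60.9% identity over the alignment. The last 15 nt of each annotated precursor, from the base-side cut on, had 76.5% identity, and the whole precursors 74.5%. Folding the annotated sequences with RNAfold gave 14 base pairs below the duplex and 18 pairs of the 5p with the 3p side in both copies. The minimum free energy was -69.2 kcal/mol for mir168a and -61.8 kcal/mol for mir168b.

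The best match for the shared 5p in the ARGONAUTE1 gene (AT1G48410) lay on the minus strand at chr1:17891529-17891549 of TAIR10.1, in coding sequence of exon 2 in all 3 annotated transcripts. It is printed because it is the target of the feedback, with the bases that pair with miR168 by Watson-Crick rules in capitals.
AGO1 site: TTCCCGAgCTGCAtCAAGCtA
There were 18 Watson-Crick pairs, 1 G-U pair and 2 mismatches. SPARE primers read precursors, so neither this mRNA nor mature miR168 was measured.

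mir168a gave many times more reads than mir168b, and the gap was wider in fiery. mir168a had 2945 reads in fiery, 8.87% of the library (8.57 to 9.18), and 967 reads in wild type, 7.97% (7.50 to 8.47). It was the precursor with the third highest read number in both libraries. mir168b had 60 reads in fiery, 0.181% (0.138 to 0.233), and 75 reads in wild type, 0.618% (0.487 to 0.774), at rank 45 of 137 precursors in fiery and rank 24 of 122 in wild type. The bracketed ranges are 95% intervals, by the exact Clopper-Pearson method for shares and the exact conditional method for ratios. They cover counting error alone, because the reads carry no molecular identifiers and PCR copies of a molecule cannot be recognised. With 1 library per genotype, no difference between genotypes has a replicate check and no p-value is given.

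mir168a had 49.1 times the reads of mir168b in fiery (38.0 to 64.5) and 12.9 times in wild type (10.2 to 16.5). mir168b thus supplied 2.00% of the miR168 precursor reads in fiery (1.53 to 2.56) and 7.20% in wild type (5.70 to 8.94). The ratio of the copies was 3.81-fold higher in fiery (2.65 to 5.48), and 2.36-fold higher with each distinct tag counted once. Each copy was copied with its own primer, so the ratio within a library is one of reads obtained and not of RNA present. A tag marks a cut end, so the amount of precursor was not measured either. In these mixed tissues, fewer cells with such fragments and fewer fragments per cell cannot be told apart.

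Against the whole library, the share of mir168a was 1.11 times as large in fiery as in wild type (1.03 to 1.20). Its direction depended on the scale. The ratio was 0.982 once mir398c and mir172a, the precursors with the most reads in fiery and in wild type, were left out of the totals, and 0.502 over tags longer than 35 nt. It was 2.14 when divided by the median ratio of the 31 precursors that reached 30 reads on both sides. The mir168b share was 0.292 of the wild-type share (0.205 to 0.416), or -1.77 on the log2 scale, and stayed below it at 0.562 after the same division and at 0.143 over tags longer than 35 nt. Such shifts were common: of the 47 precursors that reached 100 reads over the 2 libraries, 40.4% were more than 2-fold higher in fiery and 38.3% more than 2-fold lower. mir168a was among the 10 precursors within 2-fold, close to the median ratio of 1.12, and mir168b was at rank 33 from the highest ratio.

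**Figure D1:**
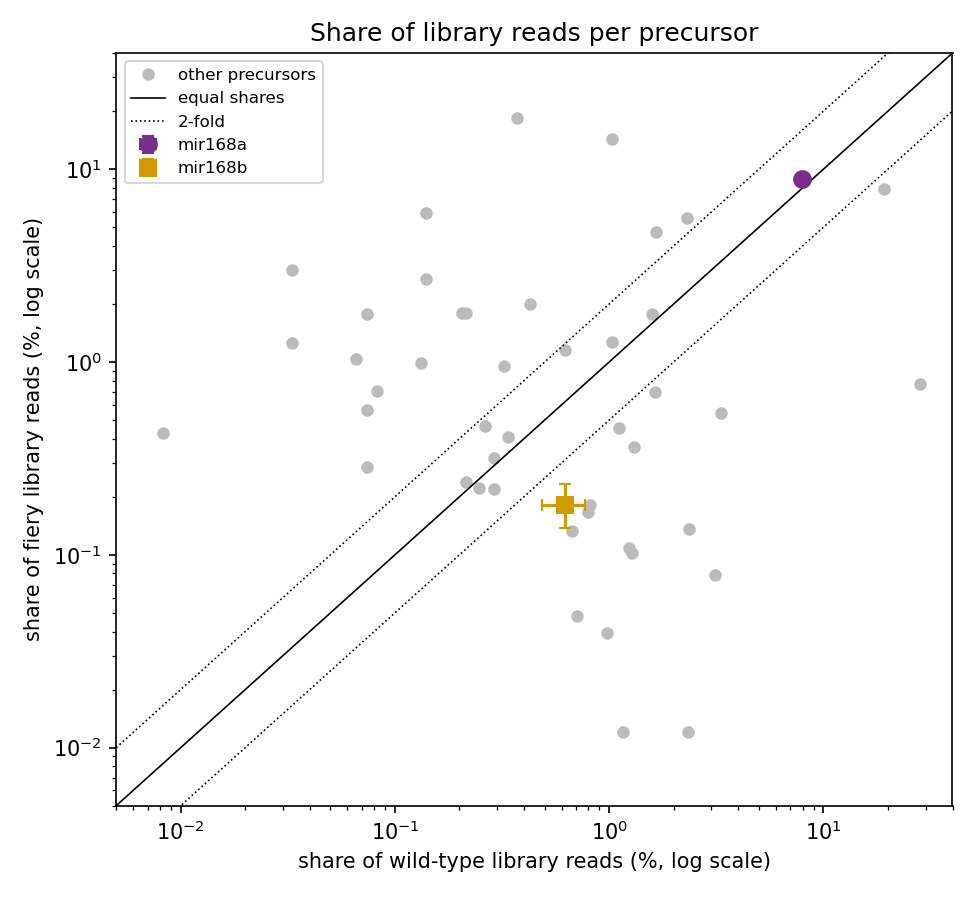
Share of library reads of each precursor that reached 100 reads over the 2 libraries, fiery on the vertical and wild type on the horizontal log axis, with exact 95% intervals for mir168a and mir168b. mir168a (8.87% in fiery, 7.97% in wild type) lies beside the line of equal shares and mir168b (0.181% and 0.618%) lies below the 2-fold line.

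Most reads of both copies started at a single base, the one directly after the 3p strand. These are the tags that carry most of the reads, with the 15 bases inside the annotated precursor in capitals.
mir168a, fiery: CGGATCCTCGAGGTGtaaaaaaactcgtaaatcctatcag
mir168a, wild type: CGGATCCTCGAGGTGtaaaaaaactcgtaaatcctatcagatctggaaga
mir168b, fiery: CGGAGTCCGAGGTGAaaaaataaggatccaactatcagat
mir168b, wild type: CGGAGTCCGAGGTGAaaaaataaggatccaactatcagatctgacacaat
No tag was longer than 40 nt in fiery or than 50 nt in wild type, so each copy's fiery and wild-type tags have the same start and a different length. Every miR168 tag matched a single place in the genome on the sense strand, and no tag was listed under both copies.

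The mir168a end lay at position 10578758 of chromosome 4, nucleotide 124 of the precursor. In fiery it held 2793 of 2945 reads, 94.8% (94.0 to 95.6), and in wild type 863 of 967, 89.2% (87.1 to 91.1). The mir168b end lay at position 18358802 of chromosome 5, nucleotide 110 of the precursor. In fiery it held 58 of 60 reads, 96.7% (88.5 to 99.6), and in wild type 64 of 75, 85.3% (75.3 to 92.4). Position 0 below is this base-side end of each copy, with positive numbers downstream.

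The copies could not be told apart in precision within a library. mir168a minus mir168b was -1.83 percentage points in fiery (-4.39 to 6.24) and 3.91 in wild type (-2.71 to 13.8), and both intervals (Newcombe) hold 0, so that differences of several points in either direction remain possible. The wild-type difference turned to -3.08 over tags longer than 35 nt and to -2.11 over tags that start within the annotated precursor. Position 13 in fiery and positions 3 and 4 in wild type could be read in mir168a but not in mir168b. They held 11, 6 and 11 mir168a reads, and no difference limited to ends readable in both copies was computed. Between the genotypes, both copies had the larger share at the main end in fiery. The main end of mir168a held 5.59 percentage points more of the reads in fiery (3.60 to 7.83), and 4.13 more over tags longer than 35 nt. That of mir168b held 11.3 percentage points more (1.14 to 21.4), with 2 reads away from the main end in fiery and 11 in wild type. Over tags longer than 35 nt the mir168b difference shrank to 2.55, with 96.7% of 60 reads in fiery and 94.1% of 68 in wild type. No interval was computed for it, so a difference in mir168b is not settled without the short tags.

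Both copies ranked high among all precursors of each library by the share of reads at the main end. Among the 57 precursors that reached 30 reads in fiery, mir168b was at rank 2 and mir168a at rank 5 by the share of reads at the main end, where the median was 66.0%. Among 45 in wild type, mir168a was at rank 5 and mir168b at rank 9, with a median of 57.1%. Of the 57 in fiery, 34 were read mainly at the base-side cut or 1 nt beside it, with a median of 76.0%. Of the 45 in wild type, 19 were, with a median of 82.7%. Among these mir168a was at rank 4 in both, while mir168b was at rank 2 in fiery and 7 in wild type. In wild type the mir168b interval (75.3 to 92.4) holds the median of 82.7%, so mir168b did not stand out there. Most pairs of copies in other families differed more than mir168a and mir168b. In fiery 21 of 23 such pairs, from 10 families, had a larger difference, and the median over these pairs was 18.9 percentage points. In wild type it was 15 of 17 pairs, from 9 families, with a median of 20.97. Families with many copies weigh most in these medians. Copies that both rank high have little room to differ, so these pair counts partly repeat the ranks given above.

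**Figure D2:**
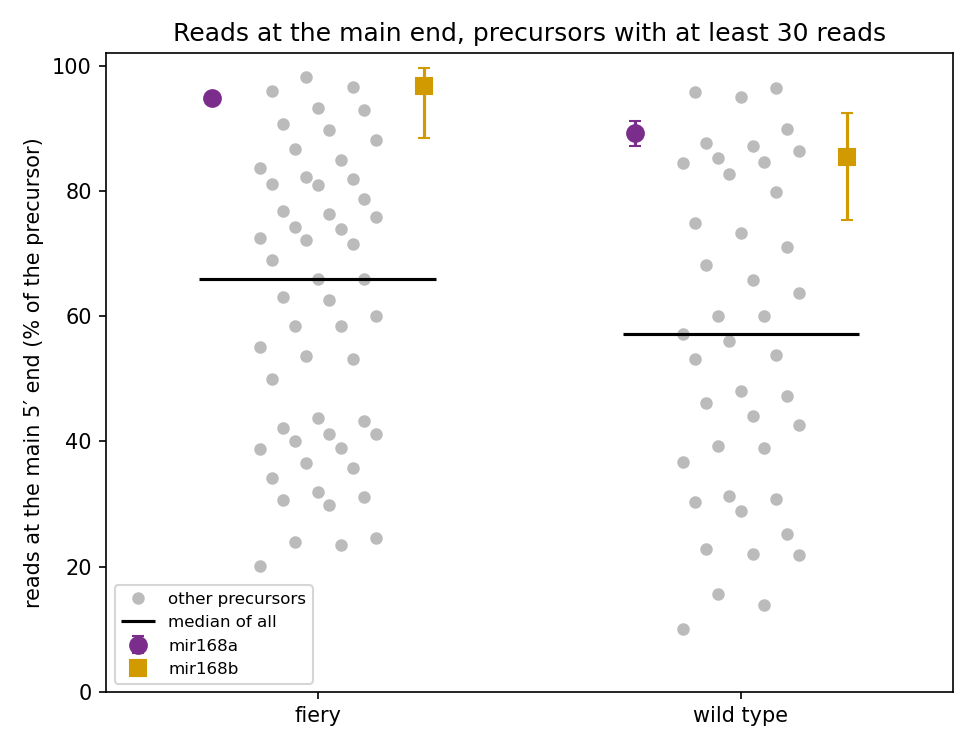
Percent of reads at the main 5′ end for precursors that reached 30 reads, fiery on the left and wild type on the right, with exact 95% intervals for mir168a and mir168b and a line at the median. The copies lie at 94.8% and 96.7% in fiery and at 89.2% and 85.3% in wild type, all above the medians of 66.0% and 57.1%.

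The precursors most like them in end positions were sought among those that had 1 annotated strand on the 3′ arm and reached 30 reads on both sides. The measure was the total variation distance between distributions of ends around the base-side cut (0 for identical, 1 for no shared end), averaged over both libraries. Out of 25 candidates, the nearest to each copy on this average was the other copy, at 0.0877. This rested on fiery, where the distance was 0.0350, against 0.141 in wild type. Taken alone, wild type put mir398b (0.0908) and mir166e (0.0964) nearer to mir168a than mir168b was, and put mir398b (0.139) nearer to mir168b than mir168a was. On the average, the next for mir168a were mir166e (0.111), whose product targets HD-ZIP III leaf polarity factors, mir390a (0.121), whose product starts the TAS3 siRNA pathway, and mir398b (0.136), whose product targets copper superoxide dismutases. For mir168b they were mir390a (0.121), mir166e (0.140) and mir398b (0.167). The median distance was 0.601 for mir168a and 0.599 for mir168b. mir166e, mir390a and mir398b also have their main end at position 0, which the measure rewards, and the 2 libraries are the whole basis of the comparison.

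The other ends of mir168a fell into a few classes. The first was the pair of bases beside the main end, with 94 reads in fiery, 3.19% (2.59 to 3.89), and 30 in wild type, 3.10% (2.10 to 4.40), with overlapping intervals. Most of these reads lay downstream of the main end. Position 1 had 75 reads and position -1 had 19 in fiery, against 29 and 1 in wild type. mir168b had 1 read at position 1 in fiery and none of 75 at either neighbour in wild type, which allows up to 4.8% (exact bound). Among the other precursors with their main end exactly at the cut, position 1 had more reads than position -1 in 19 of the 28 such precursors of fiery, with the reverse in 5. In wild type this was so in 7 of 17, with the reverse in 5.

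Ends at the loop side were rare among the reads. The primer lies past the base-side cut, so a loop-side end can be read only in RNA not yet cut at the base. The shares below are therefore not rates of loop-side cutting. For mir168a none of 2945 reads in fiery started within 1 nt of the first 3p base, which allows up to 0.125% (exact bound). In wild type 5 of 967 did, 0.517% (0.168 to 1.20), all at position -20, the base next to the start of the 3p, and all in a tag of 44 nt. That tag stopped at position 23, short of position 51, which is taken below as the outer edge of the primer. Whether these 5 reads mark a loop-side cut was not tested. mir168b had 1 such read of 60 in fiery, also at position -20, and none of 75 in wild type. Ends inside the 3p strand held 3 reads in fiery, 0.102% (0.0210 to 0.297), and 9 in wild type, 0.931% (0.426 to 1.76), for mir168a. Positions -19 and -6 were seen in both libraries, with 1 and 2 reads in fiery and 3 each in wild type. For mir168b there was none in fiery and 4 in wild type, 3 at position -17 and 1 at position -6.

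Some reads started on the 5′ arm or upstream of it. Their tags stop before the 3p strand, so that the RNA ran on to the primer is taken from the method and was not read. In fiery 4 reads of mir168a began at position -85, the first base after miR168-5p, where a cut beside the loop would fall, and 1 began at position -87. Wild type had none within 1 nt of the first base after miR168-5p, with an exact upper bound of 0.381%, so the intervals of the genotypes overlap there. At the start of miR168-5p, 5 wild-type reads began, 3 at position -107 and 2 at position -106, the first base of miR168-5p, where a cut at the base would fall. Fiery had none there, with an exact upper bound of 0.125%. A further 4 wild-type reads at position -135 and 1 at position -119 lay upstream of miR168-5p. The fiery ends at position -85 made up 0.136% of the fiery total (0.0370 to 0.347). The wild-type ends at the start of miR168-5p, a different class, made up 0.517% of the wild-type total (0.168 to 1.20). mir168b had no end upstream of its 3p strand in either library.

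Among the minor ends, the class between the cut and the primer differed most between the libraries in percentage points. From position 2 on, mir168a had 26 reads in fiery, 0.883% (0.577 to 1.29), and 44 in wild type, 4.55% (3.33 to 6.06). In fiery the largest of these ends was position 13, with 11 reads, then position 21 with 4. In wild type they were position 4 with 11 reads, position 17 with 7, position 3 with 6 and position 18 with 5. Positions 3, 4, 13 and 17 were each seen in a single library, and position 18 had 1 read in fiery. mir168b had no read there in fiery, which allows up to 5.96% (exact bound). It had 7 in wild type, 9.33% (3.84 to 18.3), of which 6 were at position 22 and 1 at position 25. mir168a had 1 read at position 22 in fiery and 3 in wild type.

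**Figure D3:**
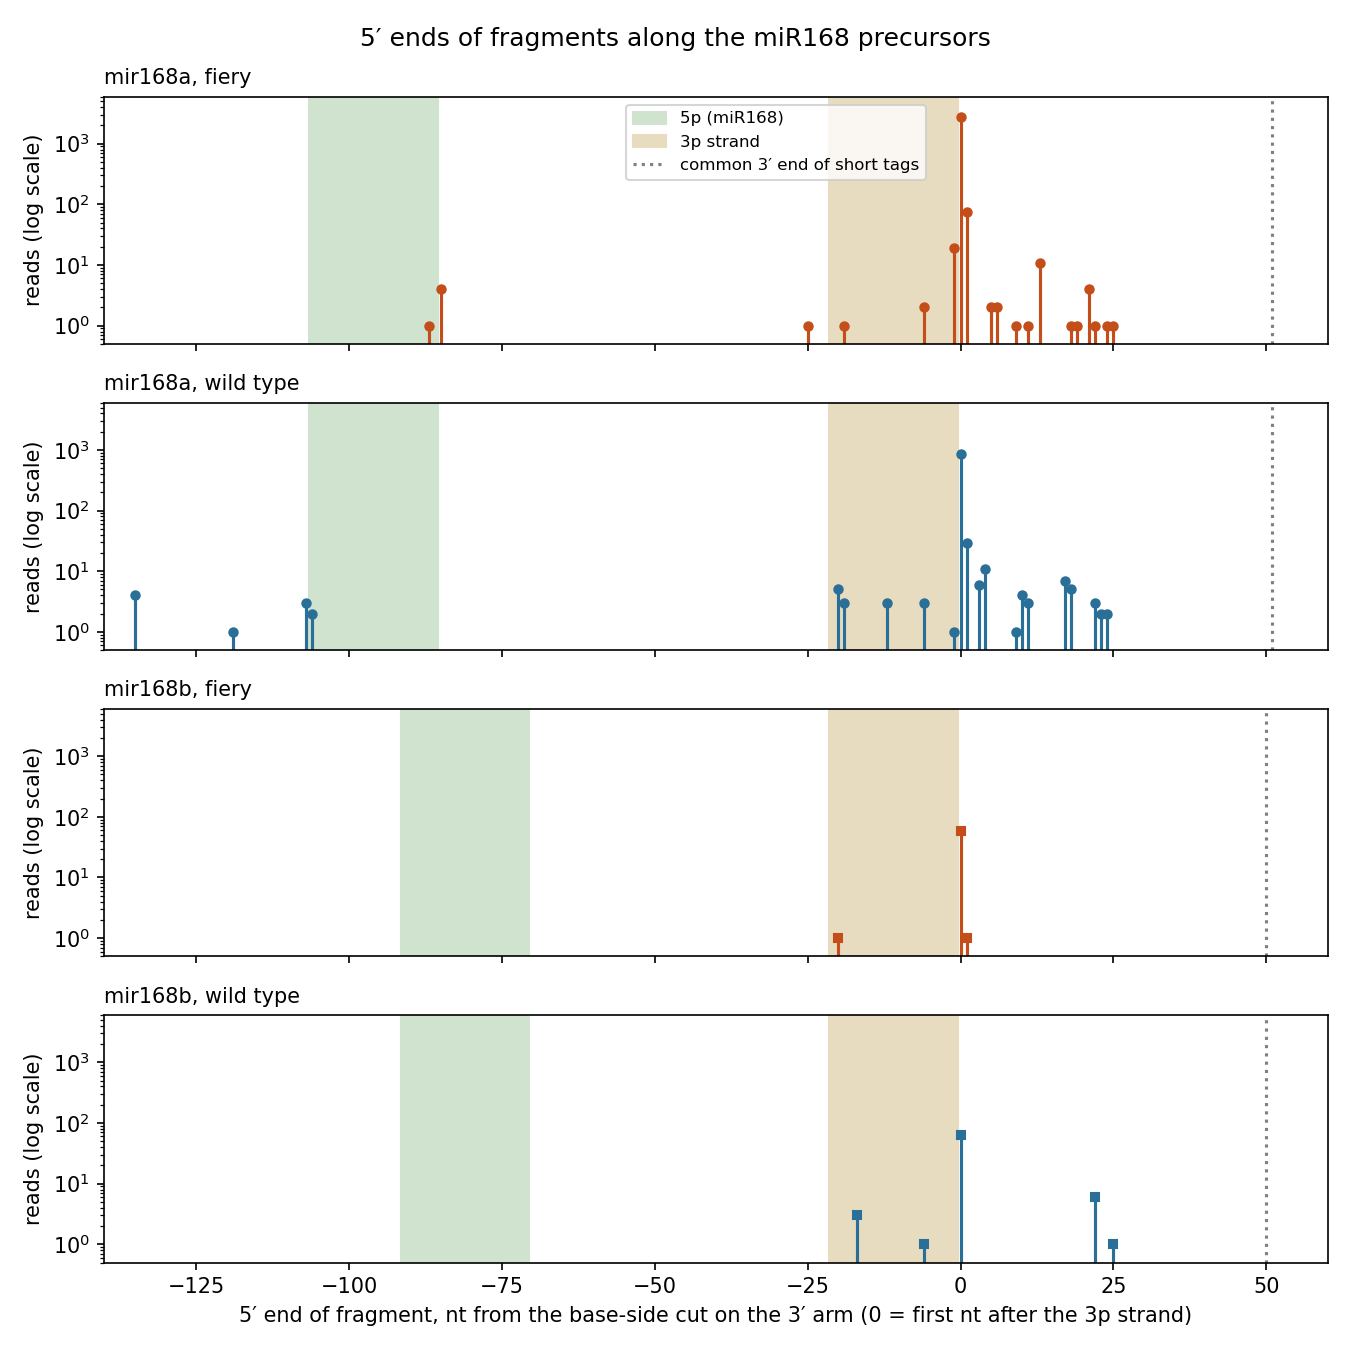
Reads by 5′ end (log scale) from 140 nt upstream to 60 nt downstream of the base-side cut, mir168a above mir168b and fiery above wild type, with the 5p and 3p strands shaded and the common 3′ end of short tags dotted. Position 0 holds 2793, 863, 58 and 64 reads from top to bottom, and the scattered ends have at most 75 reads.

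Tag length moved with this class. Short tags of up to 35 nt made up 22.4% of all reads in fiery and 65.6% in wild type. For mir168a they held 10 reads in fiery, 0.340%, and 19 in wild type, 1.97%. For mir168b there was no short tag in fiery, while wild type had 7 such reads, the same 7 as those past the cut. All 28 reads of short mir168a tags near the hairpin ended at position 51, and all 7 of mir168b at position 50, which is taken as the outer edge of the primer. There were no tags of 36 to 39 nt in the fiery library and none of 46 to 49 nt in that of wild type. Fragments of these lengths could be seen only where the genome after the primer happens to repeat the first bases of the primer's adaptor tail. It does so for 2 bases in mir168a and for none in mir168b. Ends at positions 15 and 16 in fiery and at 5 and 6 in wild type were therefore hidden in mir168a, and ends at 12 to 15 in fiery and at 2 to 5 in wild type in mir168b. The ends at position 13 in fiery and at 3 and 4 in wild type were among those visible by such a match, and all 3 positions would give readable tags in the other library. The part that the surplus of short tags in wild type played in the difference was not tested. Limited to ends that tags could show in both libraries, the mir168a main end was 5.72 percentage points higher in fiery. Limited to ends from position -1 to the primer, it was 3.78 higher.

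A last group of mir168a reads started beyond the primer. Fiery had 23, 0.781% (0.496 to 1.17), at 15 positions 117 to 646 nt past the cut, and wild type had 6, 0.620% (0.228 to 1.35), at 3 positions 276 to 660 nt past it. The intervals overlap. These reads lie on the mir168a strand, and 14 of those in fiery and 2 of those in wild type fell within the span of AT4G06880 on the opposite strand (421 to 901 nt past the cut). In fiery 11 of them lay within 10 nt, at positions 589 to 595. They start after the primer edge taken above, so that a primer at that place could not have copied them, and they are counted here under mir168a only because the authors list them so.

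**Figure D4:**
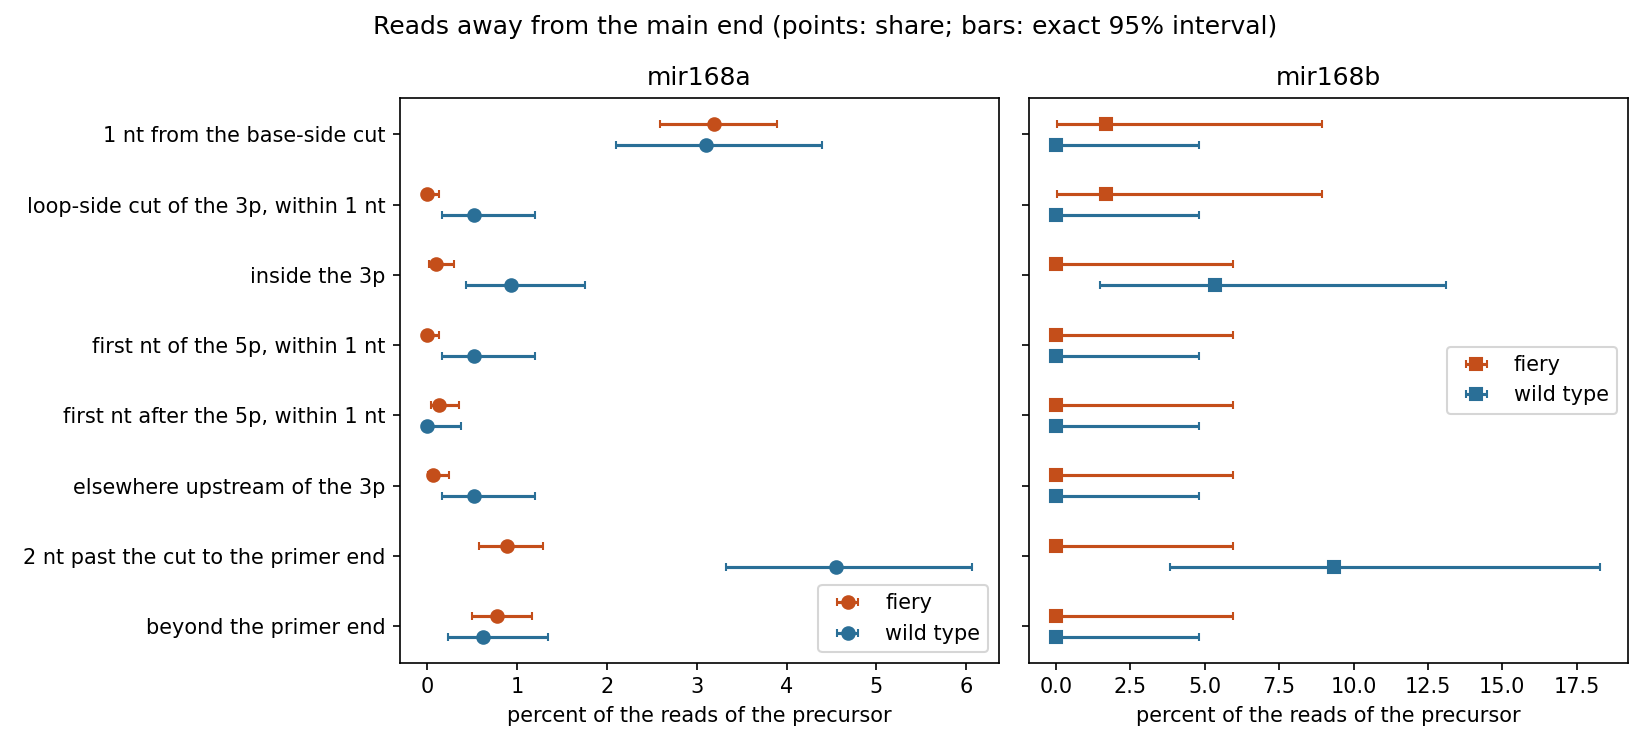
Share of reads in each class of ends away from the main end, mir168a on the left and mir168b on the right, fiery above wild type in each class, with exact 95% intervals. For mir168a the intervals lie apart in 4 classes, each lower in fiery. The largest is ends from 2 nt past the cut to the primer (0.883% and 4.55%). The others rest on few reads in fiery and wild type: ends inside the 3p (3 and 9), the loop-side cut (0 and 5) and the start of the 5p (0 and 5). The 5 loop-side reads share 1 end. The intervals treat reads as independent, and PCR copies cannot be recognised.

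Seen as a whole, mir168a had 34 distinct ends in fiery and 24 in wild type, from more reads in fiery. Drawn down to the 967 wild-type reads, the fiery reads would give 16.9 distinct ends on average. The 10 ends present in both libraries were 29.4% of the fiery ends and 41.7% of the wild-type ends, and took in 98.3% of all mir168a reads in fiery and 94.4% in wild type. mir168b had 3 distinct ends in fiery and 5 in wild type. mir168a drawn down to the same 60 and 75 reads would give 3.27 and 6.94 on average. At equal reads mir168b was thus close to mir168a in fiery and had fewer ends in wild type. The mir168a draws take in ends that mir168b could not show, at position 13 in fiery and at 3 and 4 in wild type. They also take in the ends beyond the primer, 15 in fiery and 3 in wild type, so the counts are not of like ends. No spread was computed for these averages, so whether the copies differ was not tested.

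Among precursors whose products act on the microRNA pathway itself, those of miR168 were the only ones read in numbers. mir162a and mir162b make miR162, which targets DICER-LIKE1, and mir403 makes a microRNA that targets ARGONAUTE2. mir162b had 11 reads in each library, split over the base-side cut and the loop-side start of its 3′ arm strand. The base-side cut had 6 reads in fiery and 4 in wild type, and the loop-side start 4 in fiery and 6 in wild type. mir403 had 8 reads in fiery, 5 of them at the base-side cut, and 2 in wild type, both there. mir162a had 8 reads in fiery and 3 in wild type, none in fiery within 1 nt of the cut. Of these 5 precursors, 2 had the 100 reads needed for a ratio. None was more than 2-fold higher in fiery and 1, mir168b, was more than 2-fold lower, against the 40.4% and 38.3% of all precursors given above.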

How the data were processed

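SPARE libraries of the fiery genotype and of wild type Col-0 (1 each) were read from 5′ adaptor ligation, 10 multiplex reverse transcription reactions and 18 PCR cycles, per the labels' protocols. The deposited files give, per the file headers, a precursor name, a sequence tag and its abundance, a whole-number read count that the authors left unnormalised as far as the values show. The submitters' processing notes name Bowtie and TAIR10. The version of Bowtie was not given in the sources used here.

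Here, tags were matched exactly on both strands to TAIR10.1 (1-based positions) and the match nearest the named precursor was kept. Tags of mir405a, mir405b and mir405d were counted together. The base-side cut is the base after the annotated 3p strand. End positions needed at least 30 reads and ratios at least 100. The members, lists and minimum counts were chosen with earlier results of these data known. Named precursors are both copies, their ends of at least 5 reads, mir162a, mir162b and mir403, and the 4 nearest in end positions. mir398c and mir172a, and ends with fewer reads, were named after their values were seen. Intervals and distances were tested on simulated data. Python 3.11.15, scipy 1.17.1, Biopython 1.88 and RNAfold 2.7.2 were used.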

Additional observations from a re-analysis of the deposited data

How the results depend on the processing

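Across 13 results and 98 alternatives, 62 values stayed within the interval of the reported one and 30 moved outside it. A further 6 changed direction where that interval excludes no difference. The wild-type difference between the copies, whose interval holds 0, changed sign in 3 alternatives that are among the 62 and 30. Shares are in percent and differences in percentage points.

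The main end of mir168a held 98.0% in fiery and 92.3% in wild type within 1 nt, 98.0% and 93.0% within 3 nt, 95.9% and 92.0% with tags that start in the annotated precursor, and 95.9% and 92.1% from 1 nt before the cut to the primer, an alternative chosen after seeing the data. For mir168b it held 94.1% in wild type with only tags over 35 nt or starting in the precursor, and 100% in fiery with tags of at least 2 reads, where mir168a minus mir168b became -4.51. In wild type that difference was -3.08 with only tags over 35 nt and -2.11 with tags that start in the precursor, so its sign is not settled. Tags of 35 nt or less cannot reach the main end, which makes its share 0% for mir168a in both libraries, 0% for mir168b in wild type and their genotype difference 0. They also put mir168a over mir168b at 2.71 in wild type. mir168b had no such tag in fiery, so those values could not be given.

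With each distinct tag counted once, the main end is 1 tag, 2.94% and 33.3% of those of mir168a and mir168b in fiery and 4.17% and 20.0% in wild type. The differences between copies were then -30.4 in fiery and -15.8 in wild type, and fiery minus wild type for mir168a was -1.22. The copies' ratio was 11.3 in fiery and 4.80 in wild type, 2.36-fold apart.

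The mir168a share, fiery over wild type, was 2.14 scaled by the median ratio of 0.520 (31 precursors), 0.982 without mir398c and mir172a in the totals, 0.502 with only tags over 35 nt, 0.564 with those of 35 nt or less, 0.546 by distinct tags and 0.975 with tags of a single match. That of mir168b was 0.562 scaled and 0.143 with only tags over 35 nt. Other causes were not tested. No paired analysis was possible because there is 1 library per genotype, and no replicate could be left out. The 60 and 75 reads of mir168b limit what its minor ends can show.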
